A study of Mus musculus with 12 samples.

Results

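The transcripts described here are those of 9 genes through which granulosa cells receive gonadotropins, prolactin and PACAP and handle the cAMP that follows: Lhcgr, Fshr, Prlr, Adcyap1, Adcyap1r1, Rgs2, Pde4b, Pde4d and Prkar2b. They were chosen by symbol, from a rule that holds no measured value but was written with earlier results of these data known, and all 9 were found in both expression tables, which together list 35856 genes. RNA was sequenced from the mural granulosa cells (MGCs) of the follicle wall and from the cumulus cells around the oocyte. Cells of both kinds were collected 2 h after hCG, a hormone that activates the LH receptor, from eCG-primed immature female mice, with 3 libraries for each cell type and genotype and 12 in all. The controls carry WT as their labelled genotype, and the study's methods give its WT mice as C57/BL6. The other genotype is labelled Sphk1/2 knockout and is called Sphk1/2gc-/- here, after the study's methods. By these, the mice lacked Sphk1 in every cell, and carried a loxP-flanked Sphk2 that a Cre transgene deletes in granulosa cells (Sphk1-/-; Sphk2 fl/fl; Fshr-Cre). The 3 alleles therefore differ together between the groups, and the promoter that drives the Cre is that of Fshr, which is itself among the 9 genes. The labels do not say whether the libraries of a group came from separate mice, so the p-values measure the spread between these libraries, which may be technical.

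LH and FSH act on granulosa cells through LHCGR and FSHR, receptors that couple to the stimulatory G protein and raise cAMP, and cAMP is then sensed mainly by protein kinase A (PKA). The signal is limited by phosphodiesterases, which break cAMP down. RGS proteins, a further group of regulators, shorten the active state of some G proteins. PACAP is a peptide that granulosa cells make after the LH surge and that raises cAMP through its own receptor, and the prolactin receptor signals through JAK2 and STAT5 and serves luteal function.

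Levels are FPKM, which divides fragments by exon length and library size, as the authors deposited them. The library totals that the low values imply were 16100365 to 19761604 reads. Every library held the granulosa transcript Inha (1213 to 11595 FPKM), but the markers did not follow the labels throughout: Amh, which cumulus cells are known to make, was at 87.3 to 226 FPKM in the MGC libraries and at 0.102 to 2.16 FPKM in the cumulus libraries. Of the targeted genes, Sphk1 was at 1.68, 1.89 and 0.460 FPKM in WT libraries 1 to 3 of MGCs and at 0.433, 0.557 and 0.104 FPKM in their knockout counterparts, a difference of −0.73 that overlapped between the genotypes (unadjusted p = 0.0443, limma adjusted p = 0.520). The targeted genes did not separate the genotypes in cumulus cells, where Sphk1 was at 0.0699 to 0.0954 FPKM in WT, and libraries 1 to 3 with the Sphk1/2gc-/- label held 0.0778, 0.456 and 0.557 FPKM. Sphk2 was at 0.403 to 0.602 and at 0.434 to 0.752 FPKM there, and in MGCs at 5.18 to 5.86 and at 4.51 to 6.29 FPKM. These values count all exons, including those outside the deleted part. Of the exon bases of Sphk2, 21.9% overlap those of Dbp and Rpl18. Neither gene passed between the genotypes in MGCs (Sphk2 limma adjusted p = 0.933). The genotype is therefore given by the label in both cell types. Why Sphk1 was higher in cumulus libraries 2 and 3 with the Sphk1/2gc-/- label was not tested. Library 3 of Sphk1/2gc-/- MGCs stood apart, with a correlation of 0.912 to 0.939 to the other MGC libraries.

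The promoters of 5 of the genes are shown because 3 of them (Lhcgr, Fshr and Prkar2b) were lower together in cumulus cells labelled Sphk1/2gc-/-, while Rgs2 and Adcyap1 were the most and the least abundant of the 9 transcripts in these libraries. Each line gives up to 250 bases before the transcript start, from RefSeq (GRCm38.p6), 5′ to 3′ on the strand of the gene. All 9 genes had an entry, with 16 starts among them, and the start nearest to that of GENCODE M21 was used, without bases that the latter places in an exon. Capitals mark every match, on either strand, to the core of the cAMP response element (TGACG, or CGTCA on the other strand), the E-box CACGTG, which binds USF proteins, and the GC box GGGCGG (or CCGCCC), which binds Sp1.
Lhcgr, chr17:88792015-88792264, minus strand: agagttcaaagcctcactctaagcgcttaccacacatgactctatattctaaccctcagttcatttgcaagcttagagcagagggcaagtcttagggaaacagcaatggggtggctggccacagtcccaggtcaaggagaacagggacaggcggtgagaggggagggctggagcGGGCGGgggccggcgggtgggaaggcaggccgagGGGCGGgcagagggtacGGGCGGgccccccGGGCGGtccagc
Fshr, chr17:89200676-89200925, minus strand: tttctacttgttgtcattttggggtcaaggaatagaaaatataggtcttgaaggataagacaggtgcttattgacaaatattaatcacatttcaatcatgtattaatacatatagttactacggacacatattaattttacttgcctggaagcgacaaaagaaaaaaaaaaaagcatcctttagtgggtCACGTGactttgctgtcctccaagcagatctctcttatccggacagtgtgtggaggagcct
Prkar2b, chr12:32061297-32061527, minus strand: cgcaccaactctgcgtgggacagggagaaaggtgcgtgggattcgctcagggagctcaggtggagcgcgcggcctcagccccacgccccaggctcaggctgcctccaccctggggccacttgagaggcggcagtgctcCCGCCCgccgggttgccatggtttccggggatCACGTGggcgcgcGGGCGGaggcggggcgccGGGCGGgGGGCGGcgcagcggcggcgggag
Rgs2, chr1:144004162-144004399, minus strand: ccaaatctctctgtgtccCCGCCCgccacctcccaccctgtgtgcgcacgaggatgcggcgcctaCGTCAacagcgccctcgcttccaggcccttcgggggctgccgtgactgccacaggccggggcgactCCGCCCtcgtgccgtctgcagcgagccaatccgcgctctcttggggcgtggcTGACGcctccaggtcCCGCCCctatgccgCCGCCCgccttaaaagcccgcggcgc
Adcyap1, chr17:93198767-93199016, plus strand: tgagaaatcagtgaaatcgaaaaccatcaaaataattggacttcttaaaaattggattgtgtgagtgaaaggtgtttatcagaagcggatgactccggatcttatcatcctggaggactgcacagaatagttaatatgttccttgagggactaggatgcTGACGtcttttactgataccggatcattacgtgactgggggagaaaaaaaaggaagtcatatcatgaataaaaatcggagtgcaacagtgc
The promoters of Fshr and Prkar2b each held 1 E-box, in both at 56 to 61 bases counted back from the last base shown. These places match from the GENCODE starts but not from the RefSeq starts. At its end, the Prkar2b line leaves out 19 bases and the Fshr line 0. The E-box was present in 6.02% of all 32851 RefSeq windows of 250 bases, and in 2 of the 16 windows of the 9 genes. The Lhcgr promoter held 4 GC boxes between 7 and 76 bases from its end and no E-box. GC boxes were common, in 32.7% of all windows, and Prkar2b and Rgs2 also held 4 each. The core of the cAMP response element occurred at 1 place in the Adcyap1 promoter, 87 bases from its end, and at 2 places in that of Rgs2, 51 and 169 bases from its end. The core was present in 17.8% of all windows, and the full element TGACGTCA, of which it is a part, in 1.55% of all windows and in none of the 16 of the 9 genes. A match describes the letters only, and the part of any motif in the levels was not tested.

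In WT libraries all 9 passed the test between MGCs and cumulus cells, 7 higher in MGCs and 2 lower (limma on log2(FPKM + 1), Benjamini-Hochberg adjusted p of 0.05 or less). Of all 15869 genes tested in this comparison 76.6% passed, 52.5% as higher in MGCs and 24.1% as lower, so that the 9 passes are close to the background. Between the genotypes, none of the 9 passed in MGCs, where 0.0393% of 15279 genes did (6 genes, and 3 with the replicate number as a block). In cumulus cells 7 of the 9 had the mean of 0.5 FPKM in a group that the test required, and 3 passed, all lower in the libraries labelled Sphk1/2gc-/-; 12.7% of 12205 genes passed as lower and 22.3% in either direction. The median difference was −0.55 over the 7 transcripts and −0.06 over all genes tested in cumulus cells, and −0.33 over the 9 and −0.00 over all genes in MGCs. Differences are on the log2(FPKM + 1) scale throughout, which understates those of transcripts at low levels.

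**Figure D1:**
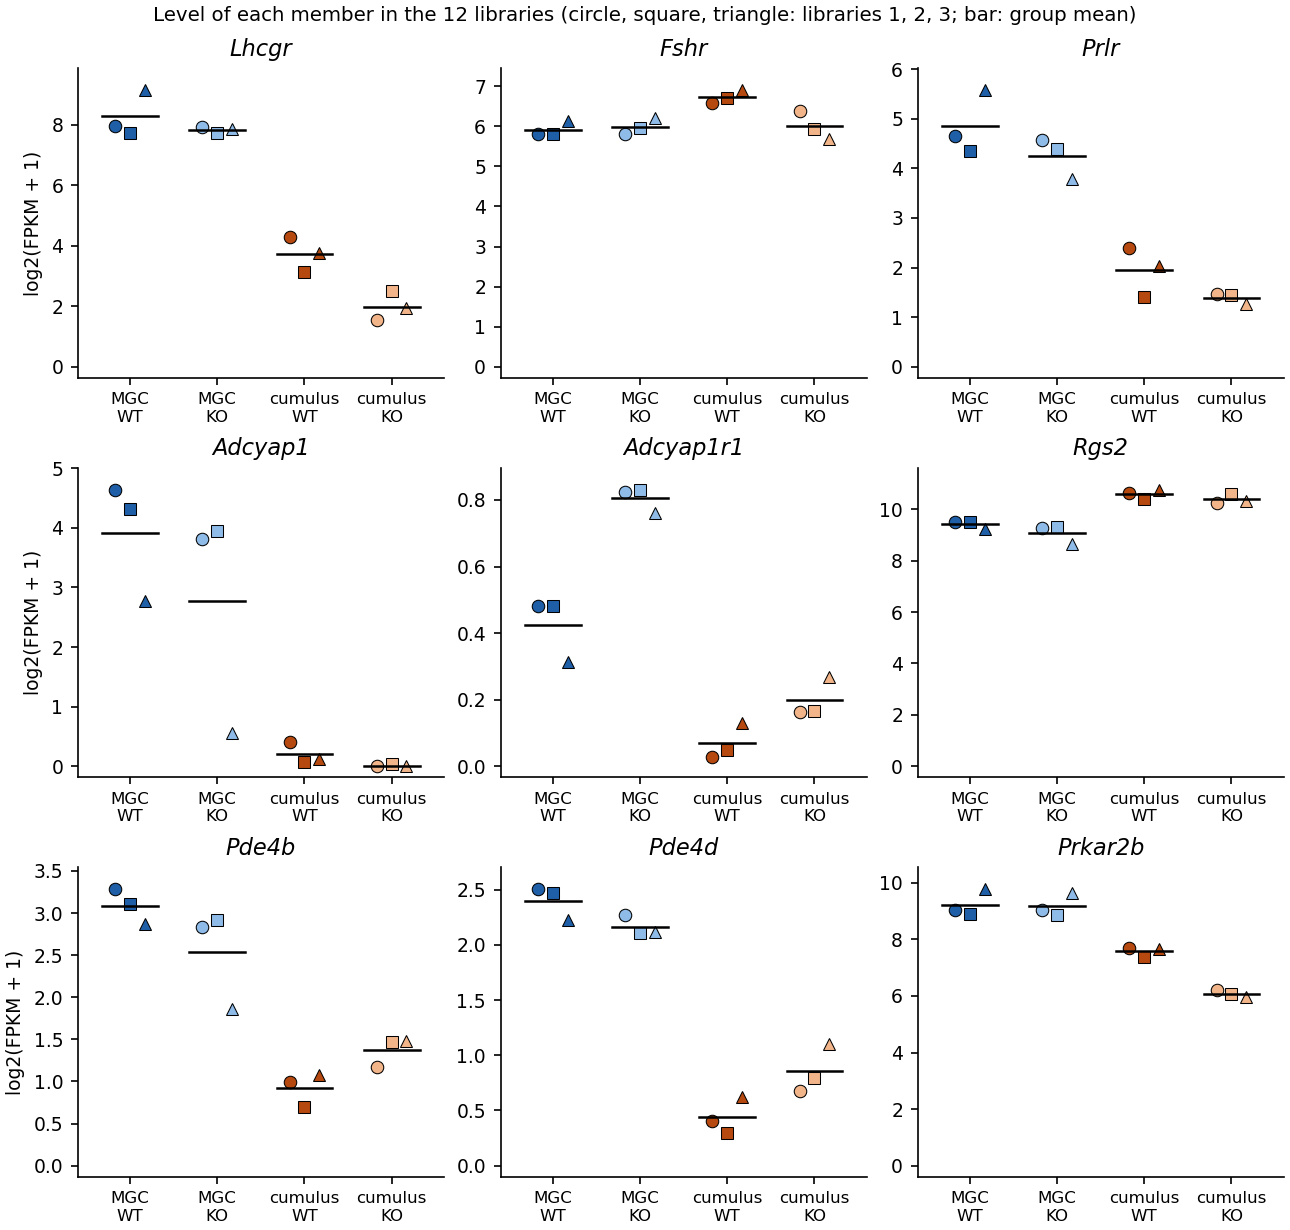
Level of each of the 9 transcripts as log2(FPKM + 1) in WT and Sphk1/2gc-/- (KO) libraries of MGCs and cumulus cells; symbols are libraries 1 to 3 and bars are group means. All transcripts except Fshr and Rgs2 lie higher in all 6 MGC libraries than in any cumulus library, and Rgs2 lies lower. In cumulus cells the KO libraries of Lhcgr, Fshr, Prkar2b and Adcyap1 lie below all WT libraries, and those of Adcyap1r1, Pde4b and Pde4d lie above. Of all genes tested there, 24.1% lie below in this way and 18.2% above. Adcyap1 and Adcyap1r1 were below the filter in cumulus cells.

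Lhcgr (ENSMUSG00000024107, chromosome 17, 88716481 to 88791990, 13 exon blocks) encodes the receptor that hCG itself activates. Libraries 1 to 3 of WT MGCs held 249, 213 and 565 FPKM, and those of Sphk1/2gc-/- MGCs 246, 210 and 232 FPKM. WT library 3 alone stood high, and the other 5 MGC libraries lay within 210 to 249 FPKM. In cumulus cells Lhcgr stood at 18.7, 7.71 and 12.6 FPKM in WT libraries 1 to 3, and at 1.93, 4.62 and 2.82 FPKM where the label was Sphk1/2gc-/-. All 3 of the latter lay below all WT libraries, as did those of 24.1% of the genes tested. Mean levels were 12.98 ± 5.49 FPKM for WT and 3.12 ± 1.37 FPKM for Sphk1/2gc-/- (SD, n = 3), a 4.15-fold difference of means, and the log2 difference was −1.74 (SE 0.329, limma adjusted p = 0.00933), with an adjusted p of at most 0.0384 when any 1 library was left out. The difference in MGCs was −0.44 (SE 0.355, limma adjusted p = 0.753) with a 95% interval of −1.28 to 0.40, and over libraries 1 and 2 of both genotypes alone it was −0.02. The mean of Lhcgr in WT MGCs was 26.4 times that in WT cumulus cells, second to the ratio of Adcyap1 among the 9 (log2 difference 4.56, SE 0.374, limma adjusted p = 3.84e-07).

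Some RNA of other cell types moved with Lhcgr in cumulus cells. Cyp17a1, the androgen-producing enzyme of theca cells, which also carry LHCGR, stood at 26.2, 9.45 and 18.1 FPKM in WT cumulus libraries 1 to 3 and at 4.44, 8.34 and 7.03 FPKM in those labelled Sphk1/2gc-/-, in the same order of libraries as Lhcgr within each genotype. It passed the test as lower (−1.24, SE 0.349, limma adjusted p = 0.0372). The 5 theca markers present in the cumulus table summed to 10.3 to 27.4 FPKM for WT and to 5.49 to 9.20 FPKM for Sphk1/2gc-/-, most of it from Cyp17a1, and 1 of the 2 with enough signal for the test was lower. Tcf21 was at 0 in all 3 Sphk1/2gc-/- libraries and at 0.0727 FPKM or less in WT. The 5 markers of stroma and pericytes summed to 7.81 to 37.1 and to 7.40 to 24.7 FPKM, with none at 0, and Lum alone of 3 tested was lower. Of 7 granulosa markers 5 were lower as well (Cyp19a1, Hsd17b1, Nr5a2, Inhba and Foxl2), and none was higher, where 12.7% of all genes were lower. Of 6 cumulus markers 3 were higher (Ptx3, Tnfaip6 and Slc38a3) and none lower, and their sum was 260 to 587 FPKM for WT and 1014 to 1231 FPKM for Sphk1/2gc-/-. The sums of oocyte markers (3.93 to 7.17 and 2.203 to 2.67 FPKM) and endothelial markers (1.15 to 1.79 and 0.589 to 0.728 FPKM) were lower without overlap. So was that of erythroid markers, at 4.37 to 26.8 FPKM for WT and at most 1.78 FPKM for Sphk1/2gc-/-. Leukocyte sums overlapped (5.41 to 55.5 and 7.74 to 54.1 FPKM). Of 4 markers of mural granulosa cells, Cyp11a1 alone was lower (−2.26, limma adjusted p = 0.00869), and none was higher. Their sum was 241 to 382 FPKM for WT and 333 to 466 FPKM for Sphk1/2gc-/-. The part of these changes in the Lhcgr difference was not tested. In bulk RNA, fewer cells of a type and less RNA per cell cannot be told apart.

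Fshr (ENSMUSG00000032937, chromosome 17, 88984952 to 89200675, 10 exon blocks) encodes the receptor for FSH, and was among the 2 transcripts of the 9 that were higher in cumulus cells. WT MGC libraries held 54.7, 55.1 and 69.5 FPKM and Sphk1/2gc-/- MGC libraries 55.0, 61.1 and 73.4 FPKM, so that the genotypes overlapped. The MGC difference was 0.08 (SE 0.162, limma adjusted p = 0.929), with a 95% interval of −0.31 to 0.46. The WT cumulus libraries held 94.0, 103.7 and 118 FPKM, and the ones labelled Sphk1/2gc-/- held 83.0, 60.3 and 50.03 FPKM. All 3 of these lay below WT, as did those of 24.1% of the genes tested, at levels inside or near the range of the MGC libraries. The log2 difference was −0.72 (SE 0.206, limma adjusted p = 0.0391). This pass was narrow: the adjusted p was 0.119 with no filter on low values, 0.0544 after median-ratio scaling and up to 0.132 with 1 library left out, exceeding 0.05 without any 1 of WT libraries 1 to 3 or Sphk1/2gc-/- libraries 2 and 3. Between WT cell types Fshr was lower in MGCs by 0.81 on the log2 scale (SE 0.193, limma adjusted p = 0.00230).

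Prlr (ENSMUSG00000005268, chromosome 15, 10177238 to 10349180, 16 exon blocks) encodes the prolactin receptor, and 1.32% of its exon bases overlap those of Gm21973. Levels in MGCs were 24.1, 19.5 and 46.6 FPKM for WT and 22.7, 20.0 and 12.8 FPKM for Sphk1/2gc-/-. WT library 3 was again the highest, as for Lhcgr, while Sphk1/2gc-/- library 3 was the lowest. Levels in cumulus cells were 4.22, 1.64 and 3.11 FPKM for WT and 1.75, 1.72 and 1.39 FPKM for Sphk1/2gc-/-, with an overlap through WT library 2. The differences were −0.61 in MGCs (SE 0.349, limma adjusted p = 0.649) and −0.55 in cumulus cells (SE 0.242, limma adjusted p = 0.131). Without WT library 2 the cumulus difference was −0.82 and its adjusted p was 0.0357. Prlr was 10.1 times as high in WT MGCs as in WT cumulus cells by group mean (log2 difference 2.92, SE 0.324, limma adjusted p = 5.29e-06).

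The transcript of PACAP, Adcyap1 (ENSMUSG00000024256, chromosome 17, 93199017 to 93206537, 5 exon blocks), was found mainly in the MGC libraries. WT MGCs held 23.9, 18.9 and 5.82 FPKM, and Sphk1/2gc-/- MGCs 13.1, 14.4 and 0.477 FPKM. Library 3 was the lowest in both genotypes, and Sphk1/2gc-/- library 3 held about 33 reads, where libraries 1 and 2 of that genotype held 839 and 923. In cumulus cells about 20, 4 and 5 reads were counted in WT (0.327, 0.0533 and 0.0818 FPKM) and 0, about 2 and 0 under the Sphk1/2gc-/- label, which is below the floor of 3 reads. Neither group mean reached 0.5 FPKM, so that the transcript was not tested there. The MGC difference was −1.13 (SE 0.959, limma adjusted p = 0.762), with an interval of −3.41 to 1.15, and it was −0.024 without Sphk1/2gc-/- library 3. Adcyap1 was lower in Sphk1/2gc-/- in 3 of 3 pairs of libraries of the same number, and with the number as a block its adjusted p was 0.402. Lhcgr, Rgs2, Pde4b and Pde4d were also lower in 3 of 3 pairs, and Fshr and Adcyap1r1 higher in 3 of 3, with adjusted p of 0.451 (Pde4b) to 0.862 (Fshr) in that fit. The share of all genes with the same sign in 3 of 3 pairs was not counted, so these counts do not show a shift. Some pairs were close, as in libraries 1 of WT and Sphk1/2gc-/- for Lhcgr (249 and 246 FPKM) and Fshr (54.7 and 55.0 FPKM). Over libraries 1 and 2 of both genotypes the Adcyap1 difference was −0.59 with an adjusted p of 0.0447, in a comparison in which 16.1% of 15433 genes passed. The WT cell types differed by 3.71 (SE 0.737, limma adjusted p = 0.000627), and the mean in WT MGCs was 105 times that in WT cumulus cells.

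Leukocyte RNA moved with Adcyap1 in MGCs. The 10 leukocyte markers summed to 331, 272 and 174 FPKM over WT libraries 1 to 3 and to 104, 130 and 28.2 FPKM over those of Sphk1/2gc-/-, with none at 0, and within each genotype the order of libraries was that of Adcyap1. None of the 10 passed between the genotypes, 2 had an unadjusted p of 0.05 or less (S100a8 and S100a9), and 4 had differences above 0 (Laptm5, Cd52, Csf1r and Cd68, 0.06 to 0.32). Most of each WT sum came from S100a9 (139, 112 and 90.9 FPKM), S100a8 (53.3, 44.7 and 36.5 FPKM) and Lyz2 (98.6, 80.1 and 27.3 FPKM), which neutrophils and macrophages express. The sum of the 4 markers of mural granulosa cells was also lowest in library 3 of each genotype. It was 2025, 1638 and 1305 FPKM for WT and 1084, 946 and 228 FPKM for Sphk1/2gc-/-. Not all of them followed the sum. Nppc was highest in library 3 of both genotypes (73.4 FPKM for WT and 89.3 FPKM for Sphk1/2gc-/-), and Cyp11a1 in WT library 3 (520 FPKM). The part of either in the level of Adcyap1 was not tested.

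Adcyap1r1 (ENSMUSG00000029778, chromosome 6, 55451978 to 55501451, 18 exon blocks) encodes the PACAP receptor PAC1, and was the lowest of the 9 transcripts in MGCs by group mean. WT MGCs held 0.395, 0.397 and 0.243 FPKM, against 0.769, 0.778 and 0.696 FPKM for Sphk1/2gc-/-. All 3 Sphk1/2gc-/- libraries lay above all WT libraries, as did those of 7.72% of the genes tested, and library 3 lay with the others. The difference was 0.38 (SE 0.145) with a 95% interval of 0.04 to 0.72, and its unadjusted p of 0.0352 became 0.4998 after adjustment by limma. This was the single transcript of the 9 in MGCs with an unadjusted p of 0.05 or less, a share of 9.2% among all genes tested. In cumulus cells the Sphk1/2gc-/- label also went with higher values than WT, with 15, 16 and 26 reads (0.121, 0.123 and 0.205 FPKM) against 2, 4 and 11 reads (0.0188, 0.0337 and 0.0949 FPKM), but these levels were below the filter and were not tested. The WT cell types differed by 0.36 (SE 0.103, limma adjusted p = 0.00730), less than the median of all genes in that comparison, which was 0.54. The mean in WT MGCs was however 7.02 times that in WT cumulus cells, a ratio that the scale understates at these levels. Over the other settings the log2 difference ran from 0.34 to 1.59, so its place against the median depends on the scale.

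Prkar2b (ENSMUSG00000002997, chromosome 12, 31958476 to 32061296, 12 exon blocks) encodes the RIIβ regulatory subunit of PKA, which binds cAMP and is known to be induced by FSH in granulosa cells. The MGC libraries held 523, 474 and 869 FPKM for WT and 523, 458 and 787 FPKM for Sphk1/2gc-/-. Library 3 was the highest in both genotypes and libraries of the same number differed little. The MGC difference was −0.06 (SE 0.303, limma adjusted p = 0.966), with a 95% interval of −0.78 to 0.66. The cumulus libraries held 207, 165 and 202 FPKM for WT and 72.7, 66.3 and 61.1 FPKM for Sphk1/2gc-/-, with a wide gap between the genotypes. Of all genes tested in cumulus cells, 24.1% had every Sphk1/2gc-/- library below WT. The mean fell from 192 ± 22.7 to 66.7 ± 5.80 FPKM (SD, n = 3), a 2.87-fold difference, and the log2 difference was −1.50 (SE 0.156, limma adjusted p = 0.00107). Among the 9 transcripts Prkar2b gave the smallest p in cumulus cells, and its adjusted p was at most 0.00898 with any 1 of the 6 libraries left out.

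Prkar2b was also the 1 transcript of the 9 whose genotype difference passed a test between the cell types. The cumulus difference was more negative than the MGC difference by 1.44 on the log2 scale (interaction −1.44, SE 0.348, limma adjusted p = 0.0429), where 1.48% of 15869 genes passed in this direction, 2.45% in the other and 3.93% in either. The adjusted p was 0.0830 with no filter on low values, and it exceeded 0.05 when any 1 of 8 libraries was left out (WT cumulus 1, 2 and 3, Sphk1/2gc-/- cumulus 2 and 3, WT MGC 1 and 2, Sphk1/2gc-/- MGC 1), with values up to 0.121. Lhcgr and Fshr had interactions of −1.29 (SE 0.529, limma adjusted p = 0.180) and −0.80 (SE 0.274, limma adjusted p = 0.117), so that a difference between the cell types was not shown for them. When libraries 3 of both genotypes of the MGCs were left out, 4 of the 9 passed (Prkar2b, Lhcgr, Pde4b and Pde4d), and 15.5% of all genes did.

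**Figure D2:**
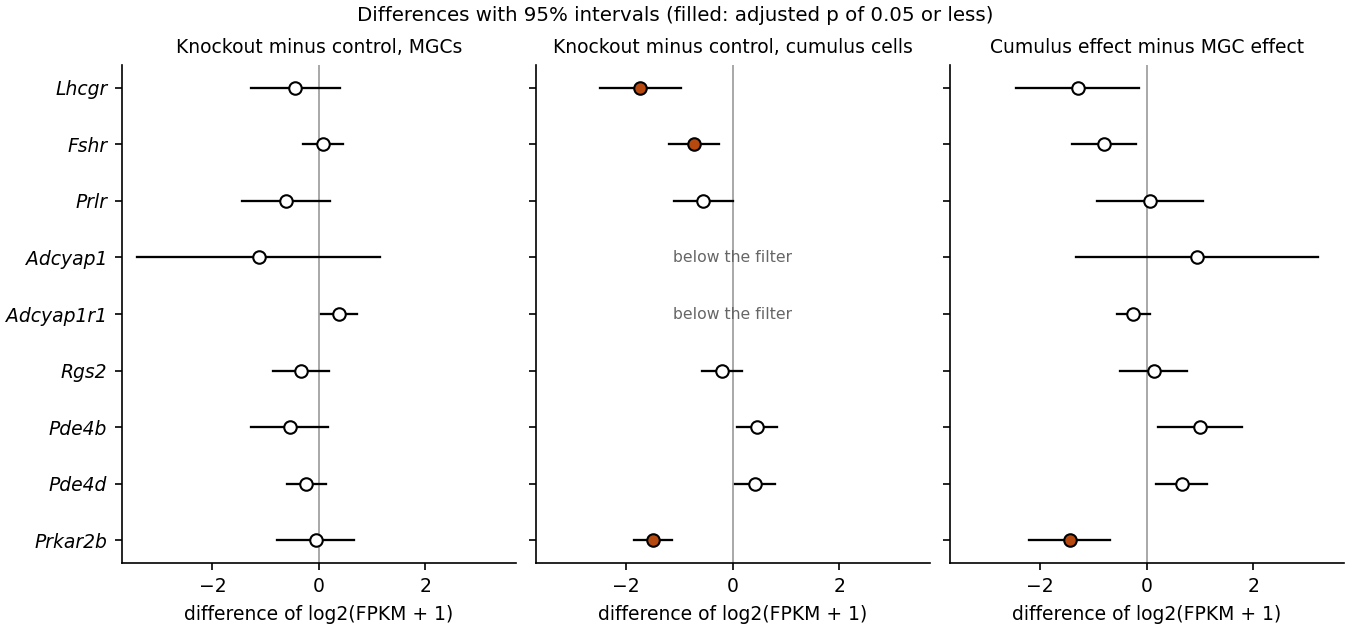
Differences of log2(FPKM + 1) between Sphk1/2gc-/- (knockout) and WT (control) libraries in MGCs and in cumulus cells, and the difference between those 2 effects, for the 9 transcripts; points are estimates, lines 95% intervals, and filled points passed at an adjusted p of 0.05 or less. In cumulus cells Lhcgr (−1.74), Prkar2b (−1.50) and Fshr (−0.72) passed, in MGCs none did, and the interval of Adcyap1 in MGCs is the widest.

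**Figure D3:**
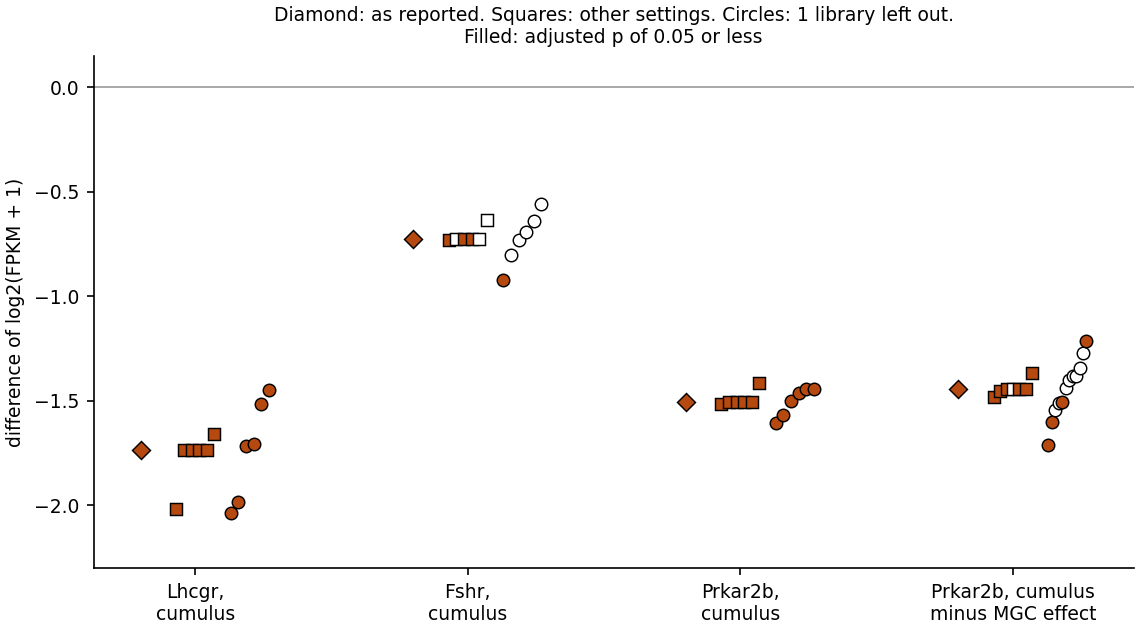
Difference of log2(FPKM + 1) for the 3 transcripts that passed in cumulus cells and for the Prkar2b interaction, as reported, under other settings and with 1 library left out; symbols within a column are ordered by value, and filled symbols have an adjusted p of 0.05 or less. All values are below 0, from −2.04 for Lhcgr to −0.56 for Fshr, and open symbols occur for Fshr and for the interaction only.

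Pde4b (ENSMUSG00000028525, chromosome 4, 102087543 to 102607259, 26 exon blocks) encodes a phosphodiesterase that breaks down cAMP. Among MGCs, WT libraries held 8.72, 7.64 and 6.30 FPKM and Sphk1/2gc-/- libraries 6.14, 6.56 and 2.62 FPKM, with library 3 the lowest in each genotype. Among cumulus libraries, the values were 0.994, 0.627 and 1.11 FPKM for WT and 1.26, 1.76 and 1.79 FPKM for Sphk1/2gc-/-. The differences therefore had opposite signs, −0.55 in MGCs (SE 0.302, limma adjusted p = 0.636) and 0.45 in cumulus cells (SE 0.163, limma adjusted p = 0.0805), and neither passed. All 3 Sphk1/2gc-/- cumulus libraries lay above WT, as did those of 18.2% of the genes tested, and without Sphk1/2gc-/- library 1 the cumulus difference was 0.55 with an adjusted p of 0.0407.

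Pde4d (ENSMUSG00000021699, chromosome 13, 108449948 to 109953461, 33 exon blocks) encodes a second enzyme of the same family and showed the same signs. Values for MGCs were 4.67, 4.55 and 3.68 FPKM with WT and 3.81, 3.32 and 3.34 FPKM with Sphk1/2gc-/-. Those for cumulus cells were 0.321, 0.232 and 0.536 FPKM with WT and 0.601, 0.733 and 1.15 FPKM with Sphk1/2gc-/-. The genotypes overlapped in MGCs. In cumulus cells all Sphk1/2gc-/- libraries lay above WT, as did those of 18.2% of the genes tested. The differences were −0.24 in MGCs (SE 0.154, limma adjusted p = 0.698) and 0.42 in cumulus cells (SE 0.165, limma adjusted p = 0.101). The interactions of Pde4b and Pde4d were 1.00 (SE 0.358, limma adjusted p = 0.133) and 0.65 (SE 0.220, limma adjusted p = 0.112). Both were higher in WT MGCs than in WT cumulus cells, Pde4b 8.31 times by group mean (log2 difference 2.16, limma adjusted p = 8.39e-06) and Pde4d 11.8 times (log2 difference 1.96, limma adjusted p = 2.89e-07).

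Rgs2 (ENSMUSG00000026360, chromosome 1, 143999338 to 144004161, 4 exon blocks), which encodes a regulator that ends G protein signalling, was the most abundant of the 9 transcripts in cumulus cells of both genotypes. The cumulus libraries held 1604, 1353 and 1734 FPKM for WT and 1225, 1568 and 1292 FPKM for Sphk1/2gc-/-. The MGC libraries held 725, 733 and 607 FPKM for WT and 625, 641 and 405 FPKM for Sphk1/2gc-/-, library 3 being the lowest of each genotype. The genotypes overlapped in both cell types, with differences of −0.33 in MGCs (SE 0.220, limma adjusted p = 0.704) and −0.20 in cumulus cells (SE 0.163, limma adjusted p = 0.401), whose 95% interval was −0.57 to 0.17. Rgs2 and Fshr were the 2 transcripts lower in WT MGCs than in WT cumulus cells, Rgs2 by 1.18 on the log2 scale (SE 0.203, limma adjusted p = 0.000205).

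Levels per exon length gave the order of the 9 transcripts within a group. In WT MGCs the order by mean was Rgs2 (689 FPKM), Prkar2b (622), Lhcgr (342), Fshr (59.8), Prlr (30.1), Adcyap1 (16.2), Pde4b (7.55), Pde4d (4.30) and Adcyap1r1 (0.345). The first 3 overlapped their neighbours in range, as did Prlr, Adcyap1 and Pde4b. In WT cumulus cells the order was Rgs2 (1564 FPKM), Prkar2b (192), Fshr (105), Lhcgr (12.98), Prlr (2.99), Pde4b (0.909), Pde4d (0.363), Adcyap1 (0.154) and Adcyap1r1 (0.0491), and ranges overlapped between Pde4d, Adcyap1 and Adcyap1r1 only. Fshr and Lhcgr thus changed places between the cell types. In the cumulus libraries labelled Sphk1/2gc-/-, Prkar2b (66.7 FPKM) and Fshr (64.4 FPKM) overlapped.

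The libraries of the 2 cell types also differed by base composition, which bears on the comparison between them. Among WT libraries the median difference of MGCs minus cumulus cells was −0.06 in the first of 4 equal bins of genes by GC content of exons, the lowest in GC, and 0.37, 0.66 and 1.14 in the next 3. The 9 genes held 39.4% (Prlr) to 52.4% (Adcyap1r1) GC, and the part of base composition in their differences was not tested. The differences of Lhcgr, Prlr, Adcyap1, Pde4b, Pde4d and Prkar2b exceeded all 4 of these medians, and those of Fshr and Rgs2 lay below all 4. The tables are in the same unit and the same scaling rule accounted for both, but a common scaling is not stated.

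The other genes of the pathway were described from lists of 89 genes. In MGCs none of 66 tested passed, 7 had an unadjusted p of 0.05 or less, and the median difference was −0.01. In cumulus cells 11 of 51 were higher and 4 lower in the libraries labelled Sphk1/2gc-/-, against 9.66% of all genes higher and 12.7% lower, and the median was 0.13 where that of all genes was −0.06. The largest rises were those of Socs3 (1.76, limma adjusted p = 0.00363), a feedback inhibitor of JAK signalling, of Prkar1b (1.64, limma adjusted p = 0.00172), another regulatory subunit of PKA, of the CREB coactivator Crebbp (1.17, limma adjusted p = 0.00203) and of Socs1 (1.14, limma adjusted p = 0.0422). Prkar1b rose from 0.0815, 0.0730 and 0.269 FPKM to 2.08, 2.10 and 3.65 FPKM, while Prkar2b fell in the same libraries, and 8.95% of its exon bases overlap those of Gm15672. The falls were those of the PKA anchor Akap7 (−0.94, limma adjusted p = 0.00486), the PKA inhibitor Pkig (−0.75, limma adjusted p = 0.00962), Stat5a (−0.66, limma adjusted p = 0.0390) and the phosphodiesterase Pde11a (−0.50, limma adjusted p = 0.0314). Of the exon bases of Akap7 1.07% overlap those of Gm40617, and of those of Stat5a 1.01% overlap Stat3. Without strand, which is not stated here, reads over such shared bases cannot be told apart.

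By group, 3 of 6 prolactin receptor signalling genes tested in cumulus cells were higher (Socs3, Socs1 and Jak2) and 1 was lower (Stat5a), and 4 of 11 other RGS proteins, GRKs and arrestins were higher and none lower. Of 15 PKA subunits, inhibitors, anchors and EPAC genes 1 was higher and 2 were lower, and of 7 other cAMP phosphodiesterases 2 were higher and 1 was lower. None of 6 G protein and adenylyl cyclase genes passed, 2 of which had an unadjusted p of 0.05 or less, and 1 of 6 CREB, ATF1, CREM and coactivator genes was higher. VIP and its receptors were below the filter in both cell types. The count of passes in cumulus cells was 8 with no filter on low values and 8 to 17 with 1 library left out, with 8 or 9 without WT library 1 or 2 or Sphk1/2gc-/- library 2 or 3.

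**Figure D4:**
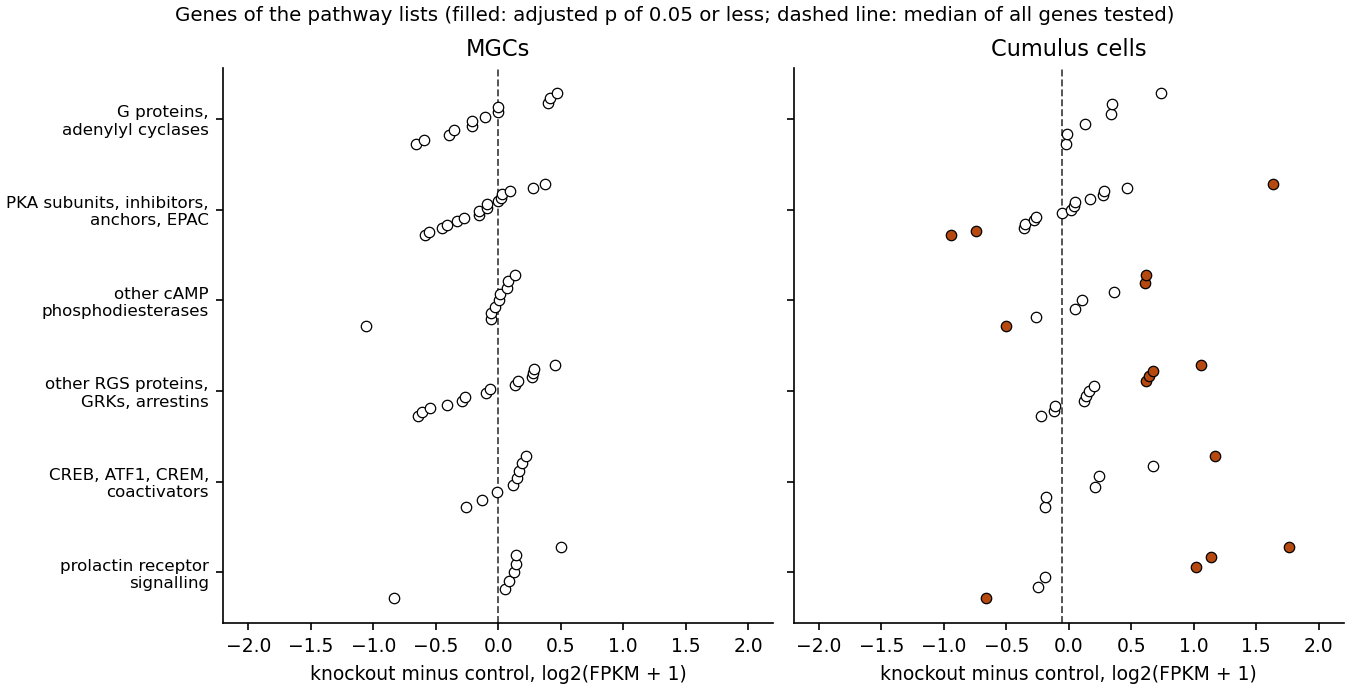
Difference of log2(FPKM + 1) between Sphk1/2gc-/- (knockout) and WT (control) libraries for the pathway genes tested in MGCs and in cumulus cells, 1 point a gene, by list; filled points passed at an adjusted p of 0.05 or less and the dashed line is the median of all genes tested. No point is filled in MGCs, and 15 are in cumulus cells, 11 of them to the right of 0.

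Between the cell types, 2 of 67 pathway genes tested had genotype differences that passed, both more positive in cumulus cells, where 2.45% of all genes passed in this direction: Crebbp (interaction 1.18, limma adjusted p = 0.00890) and the phosphodiesterase Pde7b (1.42, limma adjusted p = 0.0328). With the replicate number as a block within each cell type this count was 5, with 1 library left out it was 1 to 8 (8 without WT MGC library 3), and without MGC libraries 3 of both genotypes it was 17. Without those libraries 16 of the pathway genes passed in MGCs. In WT libraries 47 of the 67 were higher in MGCs and 3 lower, where 52.5% and 24.1% of all genes were, and their median difference was 0.94 against 0.54 for all genes. The largest differences were those of Socs3 (3.21), Adcy6 (3.05), Gnai2 (2.80) and Pde7b (2.69), and the 3 lower in MGCs were Pkig (−1.60), Rgs10 (−1.34) and Akap9 (−0.30). Adcy6 encodes an adenylyl cyclase and Gnai2 an inhibitory G protein subunit.

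For the 7 transcripts with a mean of 5 FPKM or more in a cell type, the genes of most similar pattern were sought among 8026 genes by Pearson's r of log2(FPKM + 1) over the 12 libraries. These points share the cell type difference, so the values describe it in large part. Nearest to Lhcgr were Sparc (r = 0.996), Col3a1 (0.994) and Nr5a2 (0.991), and nearest to Prlr were Prss35 (0.992), Col3a1 (0.991) and Actg2 (0.990). Nearest to Fshr were Nrm (0.970), Cog6 (0.959) and Nap1l5 (0.958), and nearest to Prkar2b were Fads1 (0.994) and Slc22a5 (0.987). Adcyap1 was nearest to Gm47662 (0.996), Retn (0.990) and Chil3 (0.989), of which Chil3 is known from myeloid cells. Pde4b was nearest to Fam189a2 (0.991), Btg1 (0.990) and Wnt4 (0.989), and Rgs2 to Ube2b (0.987), Atp6v0b (0.981) and Arl3 (0.979).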

How the data were processed

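FPKM values, as the authors deposited them, came as separate tables for MGCs (29101 genes) and cumulus cells (33137). The submitters' processing notes name HISAT2 and GRCm38, and the counting tool is not given in the sources used here. Symbols, exon lengths and positions came from GENCODE M21. FPKM times exon length fell on whole multiples of 1 read for 90.6% to 92.1% of values per library (tolerance 0.02 reads), which gave the totals and the approximate reads printed. Lhcgr, Fshr and Adcyap1 fitted less exactly.

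limma 3.58.1 (R 4.3.3, variance trend) was fitted to log2(FPKM + 1) wherever some group averaged 0.5 FPKM or more, within each cell type and, for differences between cell types, over all 12 libraries. Transcripts passed when the p adjusted by Benjamini and Hochberg over every gene in the fit was at most 0.05. The code was tested on simulated data. The members and lists were chosen with earlier results of these data known. All 9 members are named, with up to 4 passing pathway genes per comparison and direction by size of change, and the 3 genes of nearest pattern, 1 of which is not reported here. Other genes were named after their values were seen. Genotypes' libraries of the same number correlated at 0.220, 0.158 and 0.224 in MGCs after removal of group means. Libraries of different number were not compared in this way and the labels state no pairing, so pairing by number was not shown.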

Additional observations from a re-analysis of the deposited data

Results flagged for a closer look

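The genotype difference of Prkar2b differed between the cell types by a test of that difference: it was −1.50 on the log2(FPKM + 1) scale in cumulus cells and −0.06 in MGCs, an interaction of −1.44 (SE 0.348, limma adjusted p = 0.0429). Levels were lower in 3 of 3 cumulus libraries labelled Sphk1/2gc-/- than in any WT cumulus library, as for 24.1% of the genes tested there. Over the alternatives that kept all libraries and over MGC libraries 1 and 2 alone, the adjusted p ranged from 0.00281 to 0.0830, and with 1 library left out from 0.00964 to 0.121.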

How the results depend on the processing

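With 3 libraries per group, the intervals above bound what could be seen. The 9 members passing between WT cell types (7 to 9) and the 3 passing in cumulus cells (2 to 4) stayed within 1.5 times their count under the alternatives run. No member passed in MGCs except over MGC libraries 1 and 2, where 1 did (Adcyap1). The 1 member passing between the cell types' genotype differences became 0 with no filter on low values, 4 over MGC libraries 1 and 2, and 0 to 2 with 1 library left out. With the replicate block, 0, 2, 1 and 9 members passed in MGCs, cumulus cells, between the cell types' differences and between WT cell types; in cumulus cells, where same-numbered libraries correlated at −0.148, −0.0511 and 0.115 and so share only a number, Fshr was lost (adjusted p = 0.0857). Differences that did not pass changed sign in 5 members: Prlr between the cell types was −0.12 with a pseudocount of 0.1 and −0.53 over MGC libraries 1 and 2, and with 1 library left out its interaction ranged from −0.30 to 0.31, that of Adcyap1 from −0.16 to 1.53, that of Rgs2 from −0.084 to 0.25, and the MGC differences of Prkar2b and Fshr from −0.29 to 0.20 and −0.035 to 0.19. Over all genes, the counts that passed in MGCs, in cumulus cells and between the cell types' differences were 6, 2725 and 624, against 1, 1240 and 327 with no filter, 0 to 278, 1319 to 3930 and 108 to 1189 with 1 library left out, and 2486 (MGCs) and 2474 (between) over MGC libraries 1 and 2. Pathway genes passing in cumulus cells numbered 15, and 6 with a fold change of 2 or more as well. The causes were not tested.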
